A study of Mus musculus with 20 samples.

Results

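The genes described here were 38 genes of the endoplasmic reticulum (ER) stress response and the integrated stress response, followed in mouse liver in wild-type mice and in mice with a liver knockout of the gluconeogenic enzyme Pck1. They were chosen by symbol as ER chaperones and folding enzymes (14 genes), sensors of unfolded protein with the transcription factor Xbp1 (4), genes of ER-associated degradation (4), transcription factors of the integrated stress response (7), its effector and feedback genes (5), and genes of amino acid synthesis and cystine import (4). All 38 symbols were among the 46095 rows of the count table, and 36 passed the low-count filter; Phgdh and Slc7a11 did not. The study measured RNA in whole liver of wild-type (WT) and of Pck1-cKO (KO) mice, the latter a liver-specific knockout. Each genotype was fed chow or a NASH (non-alcoholic steatohepatitis) diet for 24 weeks, and the mice had an age of 31 to 33 weeks, with 5 mice in each of the 4 groups. The Cre driver of the knockout and the composition of the diets were not given in the sources used here. Nothing in the labels said whether mice of a group shared a litter or a cage, so p-values measured the spread between these 20 libraries.

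The ER folds secreted and membrane proteins, a large part of the work of a hepatocyte. When unfolded protein builds up there, 3 sensors in the ER membrane respond: Ern1 (IRE1) splices the Xbp1 mRNA, Atf6 is cut to release a transcription factor, and Eif2ak3 (PERK) phosphorylates the translation factor eIF2. Phosphorylated eIF2, which other kinases also produce when amino acids or heme are short, slows most translation but favours that of Atf4, and ATF4 then turns on genes of amino acid supply and of feedback; this arm is the integrated stress response. Counts per gene do not show Xbp1 splicing, Atf6 cleavage, eIF2 phosphorylation or Atf4 translation, so the values below are mRNA levels only. In whole tissue, fewer cells of a type and less RNA per cell cannot be told apart.

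Libraries held between 9958935 and 20601955 counts. Levels are given as CPM, the usual count scale relative to library size, with TMM-scaled sizes. Pck1 itself, the check of the genotype label, lay between 1701 and 4641 CPM in the 10 WT libraries and between 300.4 and 861 CPM in the 10 KO libraries, with no overlap. The sex of the mice was not in the labels. Y-linked counts marked all 5 WT chow libraries, 1 of 5 WT NASH (replicate 4), 3 of 5 KO chow (not 3 and 5) and 4 of 5 KO NASH (not 2) as male, so that sex and group largely moved together. In 6 libraries (WT chow 3, 4 and 5, WT NASH 4, KO chow 4 and 5) long genes read lower relative to short ones than in the other 14. KO NASH replicates 1 and 5 were closer to each other than any other pair (chi-square per degree of freedom 7.98, against 45.2 to 83.2 for the other pairs of that group). Fits within sex, with sex or length slope as a term, or with this pair summed are named beside most chosen genes whose calls changed. For genes of the other pathway lists, losses with sex as a term are named, and the other fits only in part. All 12 hepatocyte markers had counts in every group, with summed levels of 63896 to 178562 CPM. Of 12 pancreatic acinar markers, whose cells are rich in ER, Prss2, Amy2b, Amy2a5, Try4 and Clps were at 0 in all 20 libraries, and the list summed to 7.11–24.8 CPM in WT chow, 11.9–109 CPM in WT NASH, 2.65–10.3 CPM in KO chow and 3.54–4.70 CPM in KO NASH. Only 1 of the 12, Cela1, passed the low-count filter. Its means in these groups were 16.6, 33.5, 5.14 and 3.72 CPM, so these sums largely follow 1 gene. Of 10 B and plasma cell markers, Igkc and Ighm were at 0 in all libraries, and the list summed to 222–531 CPM. All 12 macrophage markers had counts, and their sum was lower in KO NASH (505–687 CPM, median 659) than in most WT NASH (642–2065, median 851), WT chow (413–2258, median 958) and KO chow libraries (630–2862, median 1162). For KO NASH against WT NASH the median log2 estimate was -0.95 over the macrophage list, -0.92 over the T and NK cell list and -0.73 over the B and plasma cell list. It was -0.25 over the hepatocyte list and -0.23 over the red blood cell list. The medians were positive over the stellate and fibroblast list (0.60), the endothelial list (0.42) and the cholangiocyte list (0.19). The part of these markers in the results was not tested.

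Both arms of the response act through short promoter sequences, and the windows that hold them are shown for the genes the results turn on and for Hspa5, the textbook case. RefSeq promoters (build GRCm38.p6) were found for 35 of the 38 genes, and the 250 bases before each start were searched on both strands. A chosen gene counted if any of its promoters matched, while the share over all promoters counted each promoter. The ER stress response element (ERSE), to which NF-Y, ATF6 and XBP1 bind, was searched as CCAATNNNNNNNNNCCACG with no mismatch. It was in 8 of 35 promoters (Hspa5, Hsp90b1, Calr, Canx, Pdia6, Dnajc3, Creld2 and Syvn1), against 0.113% of all 32851 promoters. Its shorter relative ERSE-II, ATTGGNCCACG, was in 1 (Herpud1), against 0.0304% of all. The 8-letter core of the C/EBP-ATF response element (CARE) to which ATF4 binds, TGATGNAA, was in 6 (Herpud1, Atf3, Chac1, Asns, Slc7a11 and Nupr1), against 3.45% of all; it has no overlap with the others in these windows. A match is a description of the sequence and not a measured binding site. Each window is given 5′ to 3′ on the strand of the gene, with the matches in capitals; where a core reads TTGCATCA it lies on the opposite strand.

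Hspa5, chr2:34772005-34772063, plus strand, with an ERSE: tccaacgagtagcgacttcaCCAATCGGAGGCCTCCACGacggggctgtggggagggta
Syvn1, chr19:6046512-6046570, plus strand, with an ERSE: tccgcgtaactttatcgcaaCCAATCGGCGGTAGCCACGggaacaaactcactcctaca
Herpud1, chr8:94386297-94386407, plus strand, with a CARE core and then an ERSE-II: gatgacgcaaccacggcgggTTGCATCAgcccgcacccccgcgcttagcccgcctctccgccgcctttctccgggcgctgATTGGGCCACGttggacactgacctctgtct
Atf3, chr1:191183416-191183463, minus strand, with a CARE core: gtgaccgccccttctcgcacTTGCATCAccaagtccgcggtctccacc
Nupr1, chr7:126625553-126625600, minus strand, with a CARE core: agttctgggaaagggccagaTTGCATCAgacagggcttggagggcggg
Chac1, chr2:119351029-119351076, plus strand, with a CARE core: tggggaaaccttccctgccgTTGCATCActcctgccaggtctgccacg
Slc7a11, chr3:50443633-50443699, minus strand, with a CARE core on each strand: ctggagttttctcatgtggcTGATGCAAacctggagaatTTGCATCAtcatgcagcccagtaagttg

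The windows of Atf3 and Nupr1 hold the core at the same distance from the start, with its bases 110 to 103 before it, while that of Chac1 lies 193 to 186 bases before its start. Syvn1 and Hspa5 share all the fixed letters of the ERSE and, by definition of the search, differ only in its spacer and in the flanks.

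Few of the 36 tested genes were called in any comparison, and at most 2 genes of any role were called in a comparison. Calls are at a Benjamini-Hochberg adjusted p under 0.05 over 14440 genes, by the quasi-likelihood test of edgeR. On the NASH diet, WT livers had higher Chac1 and Eif2ak3 than on chow: 2 of 36 genes were called (5.93% of all genes in either direction), both higher (2.69% of all). KO livers on chow had higher Psat1 and Nupr1 than WT livers on chow: 2 of 36 (5.53%), both higher (3.03%). On the NASH diet, KO livers differed from WT livers in 6 of 36 (9.65%). Atf3, Nupr1 and Trib3 were higher (3 genes; 4.9% of all) and Herpud1, Syvn1 and Chac1 lower (3 genes; 4.74%). Between KO NASH and KO chow no gene of the 36 was called (3.29% of all), with 6 at an unadjusted p under 0.05 by the same edgeR test (22.2% of all genes). DESeq2 called 1 of the 36, and limma voom, run with sample quality weights, called 7. None was called for the interaction either, the change of the genotype difference between the diets (0.139% of all). For it the unadjusted edgeR p was under 0.05 in 2 of the 36 (8.25% of all genes), and limma voom called 4 of the 36 and DESeq2 1. The comparisons share groups, so their values are given side by side and not as independent results.

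The signs of the 36 estimates leaned one way in 4 of the 5 comparisons, mostly through differences too small to call. For WT NASH against WT chow, 28 estimates were positive and 8 negative, with a median of 0.39 on the log2 scale, against 0.01 for all genes. For KO NASH against KO chow, 28 were again positive and 8 negative, with a median of 0.42 against -0.02. In the comparison of KO chow with WT chow, 12 were positive and 24 negative (median -0.22 against 0.00), and in that of KO NASH with WT NASH, 13 and 23 (median -0.23 against 0.00). For the interaction, 18 were positive and 18 negative, with a median of 0.02 against -0.03. The groups did not overlap at all for 4 genes that were higher in WT NASH than in WT chow (2.9% of all genes) and for 0 that were lower (3.25%). Between KO chow and WT chow 0 of the 36 were separated in either direction, against 2.26% of all genes higher and 2.65% lower. Between KO NASH and WT NASH, 1 gene lay wholly higher (7.67%) and 8 lay wholly lower (6.44%): Hspa5, Hyou1, Xbp1, Edem1, Herpud1, Syvn1, Sel1l and Chac1. Between KO NASH and KO chow, 2 were wholly higher (4.19%) and 1 wholly lower (4.31%).

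**Figure D1:**
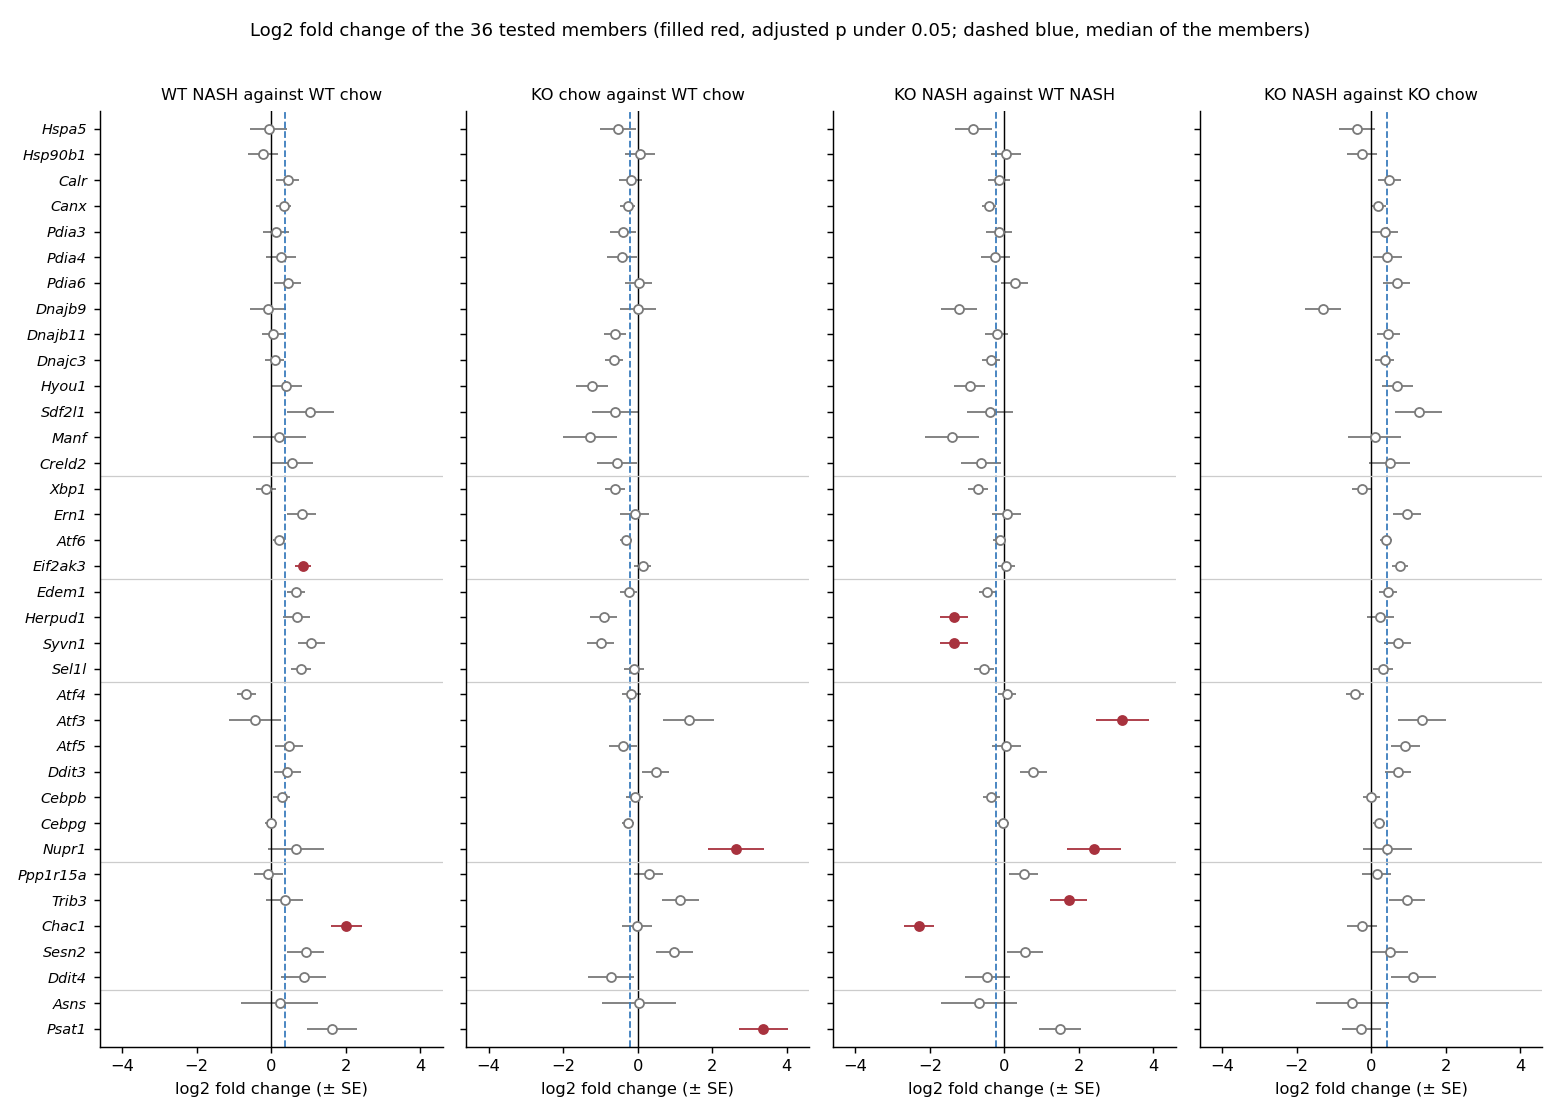
Log2 fold change (x axis) of the 36 tested genes (y axis, ordered by role, with grey lines between roles) in 4 comparisons; bars are ± 1 SE, filled red points have an adjusted p under 0.05 in edgeR, and the dashed line is the median of the 36. The 3 called genes on the right side of the third panel are Atf3, Nupr1 and Trib3, and the 3 on its left are Herpud1, Syvn1 and Chac1.

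Of the sensors, only Eif2ak3 was called, and in 1 comparison. Eif2ak3 encodes PERK, the ER kinase of eIF2 (chromosome 6, 70844515 to 70905245, plus strand, in GRCm38, GENCODE M21). In WT chow it stood at 15.9, 11.0, 11.3, 9.97 and 7.90 CPM in replicates 1 to 5, and in WT NASH at 23.6, 17.7, 20.6, 24.6 and 15.8 CPM. In KO chow it stood at 14.1, 12.4, 15.4, 11.7 and 7.90 CPM, and in KO NASH at 24.3, 15.5, 26.1, 15.8 and 24.0 CPM. Within each genotype the diet groups nearly separated: the lowest WT NASH library lay just under the highest WT chow library, and every KO NASH library lay above every KO chow library. Eif2ak3 rose 1.81-fold in WT NASH over WT chow (log2 0.86 ± 0.22 SE, with an adjusted p of 0.0268). In KO NASH over KO chow the estimate was 0.78 ± 0.22 and missed the threshold (adjusted p = 0.0566). The interaction was -0.08 ± 0.31 (adjusted p = 0.980). The call in WT was lost in 8 of 31 alternatives, among them sex as a term (log2 1.10, adjusted p = 0.0511), males only (1.10, adjusted p = 0.180), and leaving out WT chow replicate 5 (0.76, adjusted p = 0.0741), WT chow 3 or 4, or WT NASH 1 or 3.

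The other sensors were not called. Ern1 (IRE1) had estimates of 0.82 for WT NASH against WT chow and 0.96 for KO NASH against KO chow (adjusted p = 0.215 and 0.153). It lay between 7.90 and 30.0 CPM in the 10 chow libraries and between 12.7 and 43.8 CPM in the 10 NASH libraries, with overlap. Atf6 had group means between 68.8 ± 8.59 CPM (SD, n = 5) in KO chow and 99.2 ± 13.3 CPM in WT NASH, and its KO NASH libraries (from 80.5 CPM) lay wholly above its KO chow libraries (up to 77.4 CPM). Xbp1, the transcription factor that IRE1 activates by splicing, was lower in KO NASH (111 ± 8.40 CPM) than in WT NASH (182 ± 37.0 CPM), without overlap. Yet its difference of -0.72 ± 0.27 missed the threshold (adjusted p = 0.0956).

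None of the 14 chaperones and folding enzymes was called in any of the 5 comparisons by edgeR, and their levels varied widely between libraries of a group. Between diets, 0 of the 14 had an unadjusted edgeR p under 0.05 in WT (22.1% of all genes) and 1 in KO (22.2%). DESeq2 called 0 of the 14 in both, and limma voom 1 and 5. Between genotypes, 2 had such a p on chow (19.4% of all genes) and 2 on the NASH diet (25.6%). DESeq2 called 1 and 0 of the 14, and limma voom 4 and 1. For the interaction all of these counts were 0, where 8.25% of all genes had such a p. Per kb of exon, Hsp90b1 (GRP94) and Hspa5 (BiP, the chief ER chaperone, which also holds the sensors inactive) stood highest in WT chow, at 418 and 336 CPM per kb, followed by the lectin chaperone Calr at 212 and the disulfide isomerase Pdia3 at 201. Sdf2l1, a partner of BiP, stood lowest, at 17.2 CPM per kb. The gene of this role with the smallest unadjusted p was Hyou1, a large chaperone that exchanges the nucleotide of BiP (chromosome 9, 44379490 to 44392369, plus strand). Hyou1 stood at 128, 85.4, 209.7, 472 and 108 CPM in WT chow replicates 1 to 5 and at 374, 196, 196, 337 and 224 CPM in WT NASH. In KO chow it stood at 76.8, 44.5, 49.4, 179 and 77.8 CPM, and in KO NASH at 129, 130.5, 181, 115 and 138 CPM. All 5 KO NASH libraries lay below all 5 WT NASH libraries, and all KO chow libraries but replicate 4 lay below all WT chow libraries. The differences were -1.23 ± 0.42 on chow (adjusted p = 0.0965) and -0.93 ± 0.42 on the NASH diet (adjusted p = 0.167), and neither was called. Without KO chow replicate 4 the chow difference was -1.70 (adjusted p = 0.0249); without WT chow replicate 4 it was -0.62 (adjusted p = 0.412).

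The chaperones moved together from mouse to mouse. In WT chow, 13 of the 14 were highest in replicate 4, where 24.5% of all genes were highest. In KO chow all 14 were highest in replicate 4 (14.7% of all genes), and in KO NASH all 14 were highest in replicate 3 (19.7%). In WT NASH 8 were highest in replicate 4 (37.0% of all genes) and the other 6 in replicate 1 (22.5%). Relative to each gene's mean over the 20 libraries, the median chaperone stood at 1.28 (log2) in WT chow 4 and 0.99 in KO chow 4, and at -1.02 in KO chow 2 and -0.98 in KO chow 5. Manf, a secreted ER protein that protects stressed cells, ranged from 44.0 to 562 CPM within WT chow, from 89.4 to 579 CPM within WT NASH and from 19.7 to 211 CPM within KO chow, but only from 53.5 to 98.7 CPM within KO NASH. Hspa5 ranged from 716 to 3487 CPM within WT chow, from 341 to 2463 CPM within KO chow and from 571 to 930.3 CPM within KO NASH. WT chow 4, WT NASH 4 and KO chow 4 are also among the 6 libraries with a low length slope and were read as male, and the part of either in these levels was not tested.

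The direction of the chaperone group between genotypes on chow changed when WT chow replicate 4 was left out, and its size varied between the fits. For KO chow against WT chow the median of the 14 was -0.47, with 3 estimates positive and 11 negative; without WT chow replicate 4 it was 0.04, with 8 positive and 6 negative, and without KO chow replicate 4 it was -0.90, with all 14 negative and Hyou1 called. In males only, a fit that also leaves out KO chow replicates 3 and 5, it was -0.07, and with sex and the length slope as terms -0.20. The median for KO NASH against WT NASH was -0.37, with 2 positive and 12 negative, and without WT NASH replicate 4 it was -0.21. With the length slope as a term that median was -0.19, with sex as a term -0.48 and all 14 negative, in males only -0.68, and in females only -0.11 with 6 positive and 8 negative. For WT NASH against WT chow it was 0.24, with 11 positive and 3 negative. Leaving out WT NASH replicate 4 gave 0.09, while leaving out WT chow replicate 4 gave 0.56, males only 0.55, the length slope 0.45, sex as a term 0.59, and sex with the length slope 0.83, each of these 5 with all 14 positive. For KO NASH against KO chow it was 0.41, with 11 positive and 3 negative, and without KO chow replicate 4 it was 0.87, with Pdia6 and Sdf2l1 called. In males only that median was 0.07, with 9 positive and 5 negative; in females only it was 1.09, and with the length slope 0.62, with Sdf2l1 called. Dnajb9, an ER co-chaperone that returns IRE1 to its inactive state, stood apart from the others there: its difference was -1.29 ± 0.49 (adjusted p = 0.132) and its KO NASH libraries (43.3 to 83.4 CPM) lay wholly below its KO chow libraries (87.0 to 244 CPM).

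**Figure D2:**
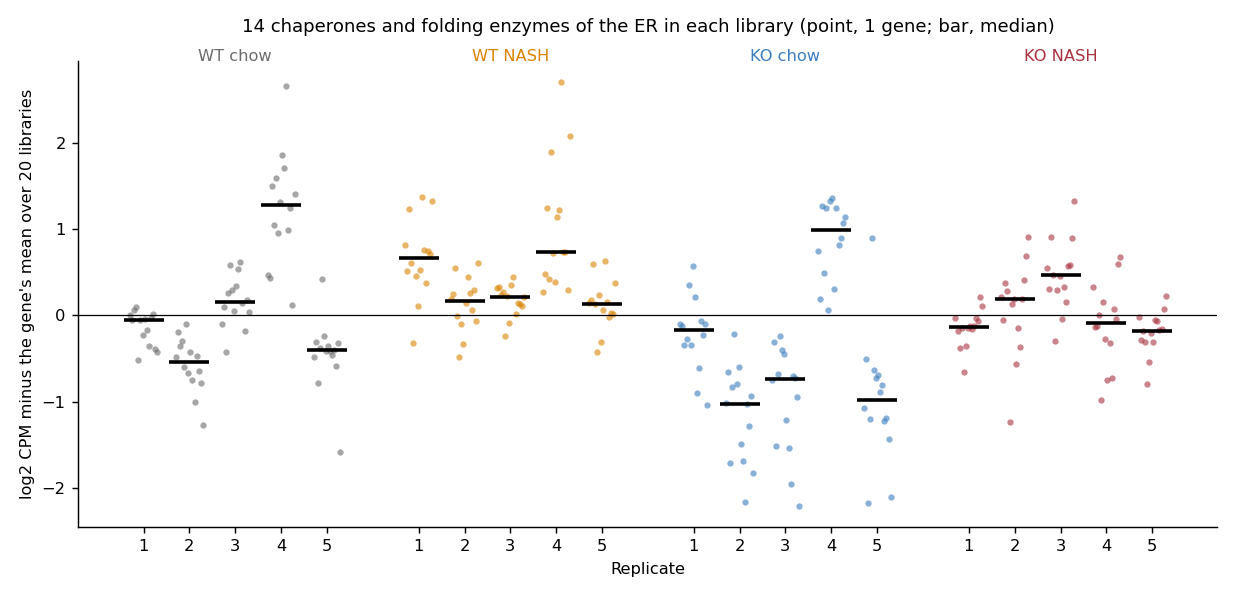
Log2 CPM of each of the 14 ER chaperones and folding enzymes minus that gene's mean over 20 libraries (y axis), by library (x axis, replicates within the 4 groups); each point is 1 gene and each bar the median of the 14. The medians of WT chow 4 (1.28) and KO chow 4 (0.99) stand above those of the other libraries of their groups, and those of WT NASH are all above 0.

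The 4 chosen genes of ER-associated degradation, which pulls misfolded protein out of the ER for the proteasome, differed most between genotypes on the NASH diet. All 4 had negative estimates for KO NASH against WT NASH, with no overlap between the groups, and 2 were called. Herpud1, a membrane adaptor of the degradation complex (chromosome 8, 94386438 to 94395377, plus strand), stood at 251, 253, 483, 395 and 568 CPM in WT chow and at 625, 497, 673, 781 and 551 CPM in WT NASH. It stood at 107, 108, 159, 483 and 177 CPM in KO chow and at 194, 237, 219.6, 388 and 187 CPM in KO NASH. Every WT NASH library lay above all 10 KO libraries, and in both KO groups replicate 4 was the highest. Herpud1 fell by 1.35 ± 0.37 on the log2 scale in KO NASH against WT NASH (adjusted p = 0.0264). On chow its difference was -0.92 ± 0.37 (adjusted p = 0.161), and without KO chow replicate 4 that difference was called too.

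Syvn1 encodes HRD1, the ubiquitin ligase of the complex (chromosome 19, 6046576 to 6053712, plus strand). It stood at 50.2, 48.2, 26.5, 81.8 and 14.3 CPM in WT chow and at 122, 86.6, 70.9, 116 and 69.8 CPM in WT NASH. It stood at 34.3, 23.1, 27.0, 17.3 and 8.87 CPM in KO chow and at 31.9, 30.8, 40.9, 41.1 and 37.6 CPM in KO NASH. KO NASH was narrow and wholly below WT NASH, whereas WT chow overlapped every other group. Syvn1 fell by 1.35 ± 0.37 (log2) in KO NASH against WT NASH (adjusted p = 0.0258). Its differences with diet, 1.07 ± 0.36 in WT (adjusted p = 0.0864) and 0.72 ± 0.36 in KO (adjusted p = 0.245), were not called.

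Both calls held with sex as a term (Herpud1 -1.54, adjusted p = 0.0394; Syvn1 -1.59, adjusted p = 0.0330) and with sex and the length slope as terms. Both were lost in males only, with 1 WT NASH male (Herpud1 -1.63, adjusted p = 0.122; Syvn1 -1.58, adjusted p = 0.0870), in females only, with 1 KO NASH female (-1.29 and -1.48), with KO NASH replicates 1 and 5 summed (adjusted p = 0.0781 and 0.0609), and without KO NASH 1, 2 or 5 or WT NASH 4; that of Herpud1 was lost without KO NASH 3 as well. Over all alternatives the estimate of Herpud1 lay between -1.63 and -1.09 and that of Syvn1 between -1.79 and -1.22. Edem1, which pulls misfolded glycoproteins out of the folding cycle, and Sel1l, the partner of HRD1, had smaller differences of -0.46 ± 0.23 (adjusted p = 0.228) and -0.55 ± 0.27 (adjusted p = 0.203). Both of these were called, so that all 4 genes were, with the length slope as a term and with only the groups compared; Sel1l was called by limma voom and with sex and the length slope as terms too. Both lay wholly higher in WT NASH than in WT chow, by 0.66 ± 0.24 (adjusted p = 0.102) and 0.79 ± 0.27 (adjusted p = 0.0868), but not called by edgeR. DESeq2 and limma voom each called Edem1, Sel1l and Syvn1 for this diet difference, and Herpud1 was called with the length slope as a term.

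Of the 7 transcription factors of the integrated stress response, 2 were called higher in KO livers, and Atf4 itself was not. Atf4 stood at 94.9 ± 19.1, 59.9 ± 14.3, 84.5 ± 36.2 and 62.9 ± 9.24 CPM in WT chow, WT NASH, KO chow and KO NASH (SD, n = 5), and its differences with diet were negative in both genotypes (-0.67 and -0.42) without passing the threshold. Atf3, a repressor and early stress gene induced by ATF4 (chromosome 1, 191170296 to 191218039, minus strand), was low in WT, at 1.48, 3.57, 2.09, 1.71 and 0.416 CPM on chow and at 0.710, 1.01, 2.00, 1.03 and 2.07 CPM on the NASH diet. It stood at 7.60, 6.96, 0.891, 1.38 and 7.11 CPM in KO chow and at 22.3, 2.82, 11.9, 2.44 and 22.7 CPM in KO NASH. Every KO NASH library lay above every WT NASH library, and within both KO groups the libraries split into low and high ones. Atf3 rose 8.98-fold in KO NASH over WT NASH (log2 3.17 ± 0.71, adjusted p = 0.00914). On chow its difference was 1.36 ± 0.67 (adjusted p = 0.277), and the interaction was 1.80 ± 0.95 (adjusted p = 0.664). The call on the NASH diet was lost in 4 of 32 alternatives, all concerning sex: with sex as a term the estimate was 2.56 (adjusted p = 0.0951), with sex and the length slope 2.50 (adjusted p = 0.0574), in males only 3.87 (adjusted p = 0.0963) and in females only 0.98 (adjusted p = 0.961).

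Nupr1, a small stress-induced chromatin protein (chromosome 7, 126623249 to 126630861, minus strand), had the same high libraries as Atf3 in KO NASH. It stood at 1.66, 1.46, 1.59, 0.285 and 1.25 CPM in WT chow and at 2.00, 2.43, 1.45, 3.09 and 1.29 CPM in WT NASH. It stood at 17.5, 12.9, 1.44, 2.83 and 4.68 CPM in KO chow and at 22.1, 2.01, 7.33, 1.49 and 20.7 CPM in KO NASH. The WT libraries were all low, and the KO libraries ranged from the WT level to over 10 CPM in replicates 1 and 2 on chow and 1 and 5 on the NASH diet. Nupr1 rose 6.23-fold in KO chow over WT chow (log2 2.64 ± 0.74, adjusted p = 0.0413) and 5.32-fold in KO NASH over WT NASH (2.41 ± 0.72, adjusted p = 0.0398). On chow the call held in males only (3.14, adjusted p = 0.0214) and was lost in 13 of 31 alternatives, among them with the length slope as a term (2.28, adjusted p = 0.0531), without KO chow 1 (2.12, adjusted p = 0.134) or 2 and without any 1 WT chow library. On the NASH diet it was lost in 16 of 32, among them the length slope as a term (2.04, adjusted p = 0.0616), sex as a term (1.05, adjusted p = 0.455), males only (2.09, adjusted p = 0.288), females only (0.18, adjusted p = 0.998), replicates 1 and 5 summed (2.02, adjusted p = 0.110), and without KO NASH 1, 3 or 5 or any 1 WT NASH library.

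The other factors were not called. Ddit3 (CHOP), the factor tied to death of stressed cells, had means of 3.68 ± 1.12, 4.95 ± 1.71, 5.17 ± 2.69 and 8.51 ± 3.61 CPM in WT chow, WT NASH, KO chow and KO NASH, with positive estimates in both genotype comparisons. Atf5, a factor of mitochondrial and ER stress, had means of 144 ± 61.3 CPM in KO chow and 272 ± 46.7 CPM in KO NASH. Cebpb and Cebpg, partners of ATF4 on the CARE, stayed between 99.9 and 128 CPM and between 61.0 and 73.5 CPM in group means.

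Among effectors, Chac1 was high in WT NASH and low in the other 3 groups. Chac1 encodes an enzyme that breaks down glutathione and is a target of ATF4 (chromosome 2, 119351229 to 119354381, plus strand). It stood at 1.13, 1.19, 1.79, 3.23 and 1.18 CPM in WT chow and at 3.49, 4.09, 7.63, 12.1 and 7.17 CPM in WT NASH. It stood at 1.30, 1.81, 2.03, 2.11 and 1.03 CPM in KO chow and at 0.810, 2.56, 0.807, 1.15 and 1.59 CPM in KO NASH. Every WT NASH library lay above all 15 of the other groups, while WT chow, KO chow and KO NASH overlapped. Chac1 rose 4.06-fold in WT NASH over WT chow (log2 2.02 ± 0.41, adjusted p = 0.00618) and fell by 2.29 ± 0.41 (log2) in KO NASH against WT NASH (adjusted p = 0.00165). Its differences of KO chow from WT chow (-0.02 ± 0.41, adjusted p = 0.987) and of KO NASH from KO chow (-0.25 ± 0.40, adjusted p = 0.727) were not called. The interaction, the test of whether the diet difference itself depended on the genotype, was -2.27 ± 0.57 and missed the threshold (adjusted p = 0.127); it was called by DESeq2 and limma voom, with the length slope as a term, and without KO NASH replicate 2. The WT diet call held in all 31 alternatives, with estimates of 1.70 to 2.82, and in males only it was 2.82 (adjusted p = 0.0214). The genotype call held in 31 of 32, in males only at -3.43 (adjusted p = 0.00222), and was lost in females only (-1.10, adjusted p = 0.788), with 4 WT NASH females against the KO NASH female of replicate 2, at 2.56 CPM the highest of its group. Counts of Chac1 were low, between 13 and 126 in a library.

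Trib3, a pseudokinase that ATF4 and CHOP induce and that feeds back on them (chromosome 2, 152337422 to 152344032, minus strand), was highest in KO NASH. It stood at 9.30, 7.42, 5.17, 7.50 and 3.67 CPM in WT chow and at 9.10, 6.41, 10.4, 11.9 and 5.23 CPM in WT NASH. It stood at 19.4, 24.2, 8.22, 10.7 and 10.5 CPM in KO chow and at 57.5, 9.40, 12.9, 8.15 and 53.4 CPM in KO NASH. KO NASH replicates 1 and 5 stood above all other libraries, and the other 3 of that group overlapped the WT NASH libraries. Trib3 rose 3.30-fold in KO NASH over WT NASH (log2 1.72 ± 0.50, adjusted p = 0.0335). With that pair summed into 1 sample the estimate was 1.34 (adjusted p = 0.110), without replicate 1 it was 1.31 (adjusted p = 0.115), without replicate 5 it was 1.37 (adjusted p = 0.112), and with sex as a term it was 0.96 (adjusted p = 0.313). The call was lost in 12 of 32 alternatives in all, including those without WT NASH 1, 2 or 5.

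The remaining effectors were not called. Sesn2, a brake on growth signalling by mTORC1, had means of 4.08 ± 3.66, 7.85 ± 3.08, 8.21 ± 3.96 and 11.7 ± 2.17 CPM in WT chow, WT NASH, KO chow and KO NASH. Ddit4, with a similar action, had 12.6 ± 7.13, 23.1 ± 10.4, 7.66 ± 3.82 and 16.7 ± 16.2 CPM. Ppp1r15a (GADD34), the subunit that removes the phosphate from eIF2, stayed between 6.74 and 9.76 CPM in group means.

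The 4 amino acid genes were expressed at low levels, and of the 2 tested, Psat1 was called in 1 comparison and Asns in none. Psat1, an enzyme of serine synthesis (chromosome 19, 15904678 to 15947337, minus strand), was low in WT and higher in most KO livers. It stood at 0.474, 0.325, 0.199, 0.380 and 0.208 CPM in WT chow, which is 2 to 8 counts a library, and at 0.581, 1.36, 0.787, 1.77 and 0.710 CPM in WT NASH. It stood at 2.92, 6.51, 0.396, 2.47 and 4.68 CPM in KO chow and at 3.45, 2.99, 2.86, 0.431 and 4.49 CPM in KO NASH. In each KO group 4 libraries lay above all 10 WT libraries and 1 library (KO chow 3, KO NASH 4) lay at the WT chow level. Psat1 rose 10.4-fold in KO chow over WT chow (log2 3.37 ± 0.65, adjusted p = 0.00453). The chow call held in all 30 alternatives in which Psat1 was tested, with estimates of 2.99 to 3.66; with only the 2 groups compared in the fit it did not pass the count filter. On the NASH diet the genotype difference was 1.49 ± 0.58 (adjusted p = 0.104), and Psat1 in WT NASH lay wholly above WT chow, by 1.62 ± 0.67 (adjusted p = 0.154).

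Slc7a11, the cystine importer that supplies glutathione synthesis (chromosome 3, 49892526 to 50443614, minus strand), had too few counts for the filter. It had 0 counts in all 5 WT chow libraries and 1, 0, 2, 0 and 2 counts in WT NASH. It had 17, 42, 2, 0 and 7 counts in KO chow and 31, 4, 4, 3 and 29 counts in KO NASH. Over the group, 3 counts, the limit that a count of 0 allows, would be 0.0426 CPM in WT chow. The 68 counts of KO chow pooled were 0.702 CPM, 16.5-fold over that limit, and the 71 counts of KO NASH were 0.671 CPM. This ratio pools the mice and leaves out their spread, and 42 of the 68 counts came from KO chow replicate 2. In the fit without the filter, Slc7a11 was called for KO chow against WT chow (adjusted p = 0.0230) and not for KO NASH against WT NASH (adjusted p = 0.0896). With 0 counts in WT chow, the difference on chow had no usable SE. Asns, asparagine synthetase, was led by single libraries: its WT NASH values were 0.121 to 9.56 CPM, with a median of 0.387. Phgdh, the enzyme before Psat1 in serine synthesis, had 19, 23, 30 and 22 counts in all in WT chow, WT NASH, KO chow and KO NASH and was called in none of the comparisons of the edgeR fit without the filter; its smallest adjusted p there was 0.564, for KO NASH against KO chow, and none had an unadjusted p under 0.05.

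**Figure D3:**
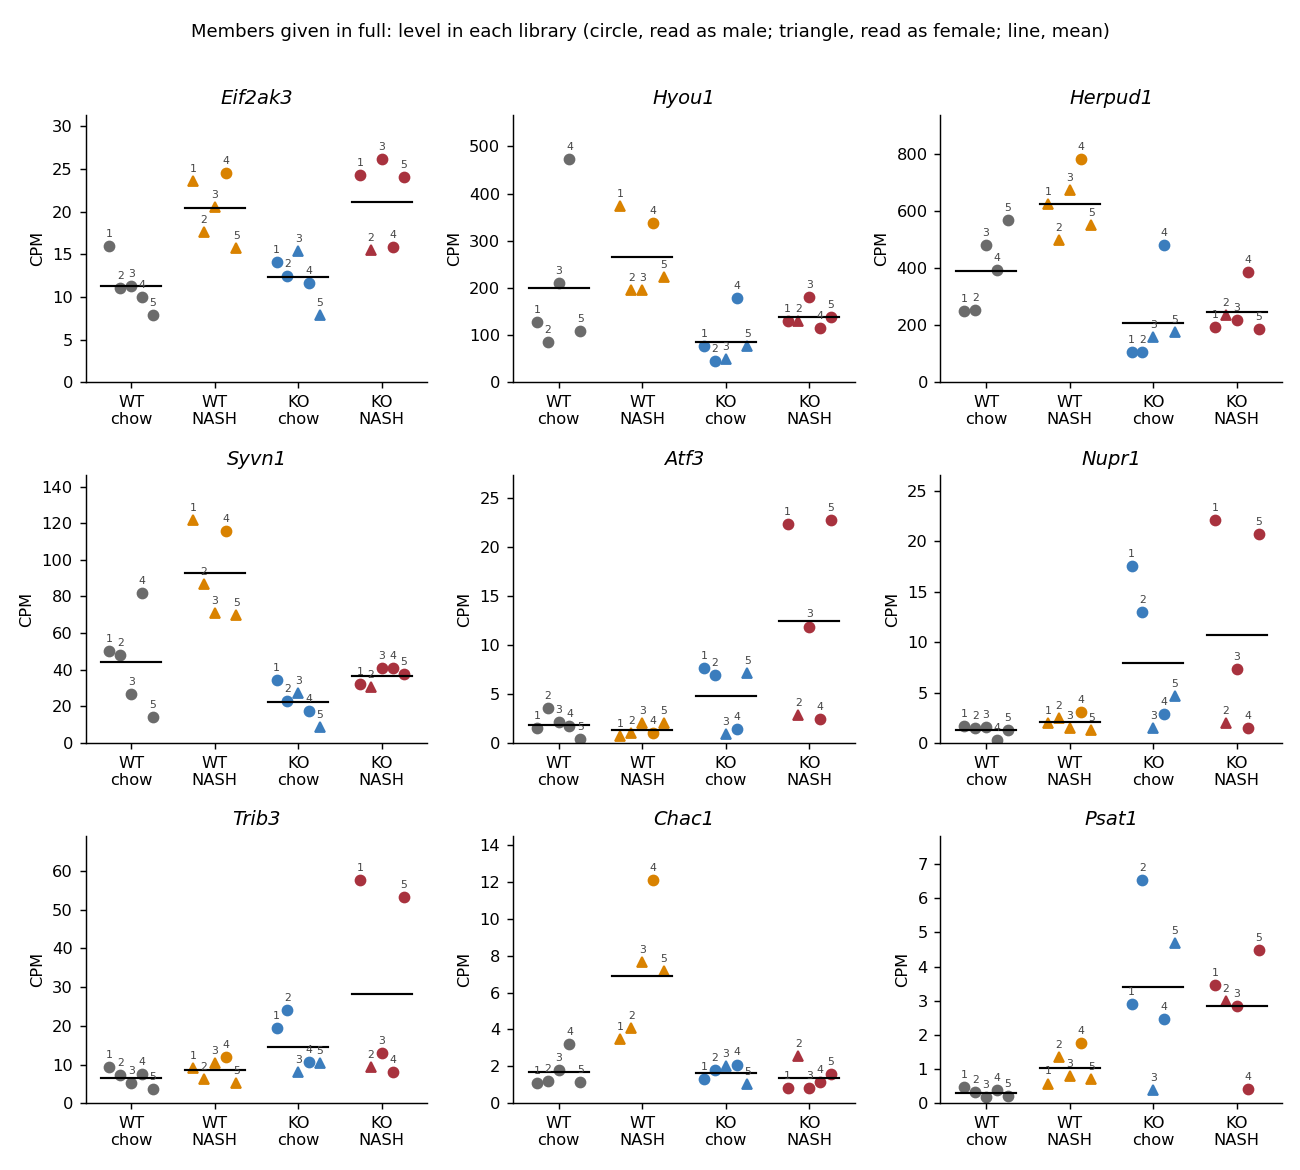
CPM (y axis, from 0) of 9 genes in each of 20 libraries by group (x axis); numbers are replicates, circles libraries read as male, triangles libraries read as female, and lines the group means. Chac1 is high in WT NASH alone, Herpud1 and Syvn1 are lower in KO NASH than in every WT NASH library, and Atf3, Nupr1 and Trib3 are highest in KO NASH replicates 1 and 5.

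Within KO NASH the highest library was not the same for all genes. In replicates 1 and 5, the closest pair of libraries, 12 of the 36 genes were higher than in replicates 2, 3 and 4 (24.4% of all genes were): Xbp1, Ern1, Atf4, Atf3, Ddit3, Ppp1r15a, Trib3, Asns, Psat1, Sesn2, Ddit4 and Nupr1. Another 11 were lower in that pair (21.5% of all genes): Calr, Canx, Pdia3, Pdia4, Pdia6, Dnajb11, Dnajc3, Sdf2l1, Creld2, Herpud1 and Sel1l. The other 13 genes were in neither set. This split was drawn after the pair was seen to stand apart and carries no test. In WT chow, replicates 3, 4 and 5, with low length slopes, were higher than replicates 1 and 2 for 7 of the 36 genes (28.3% of all genes) and lower for 5 (30.5%).

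**Figure D4:**
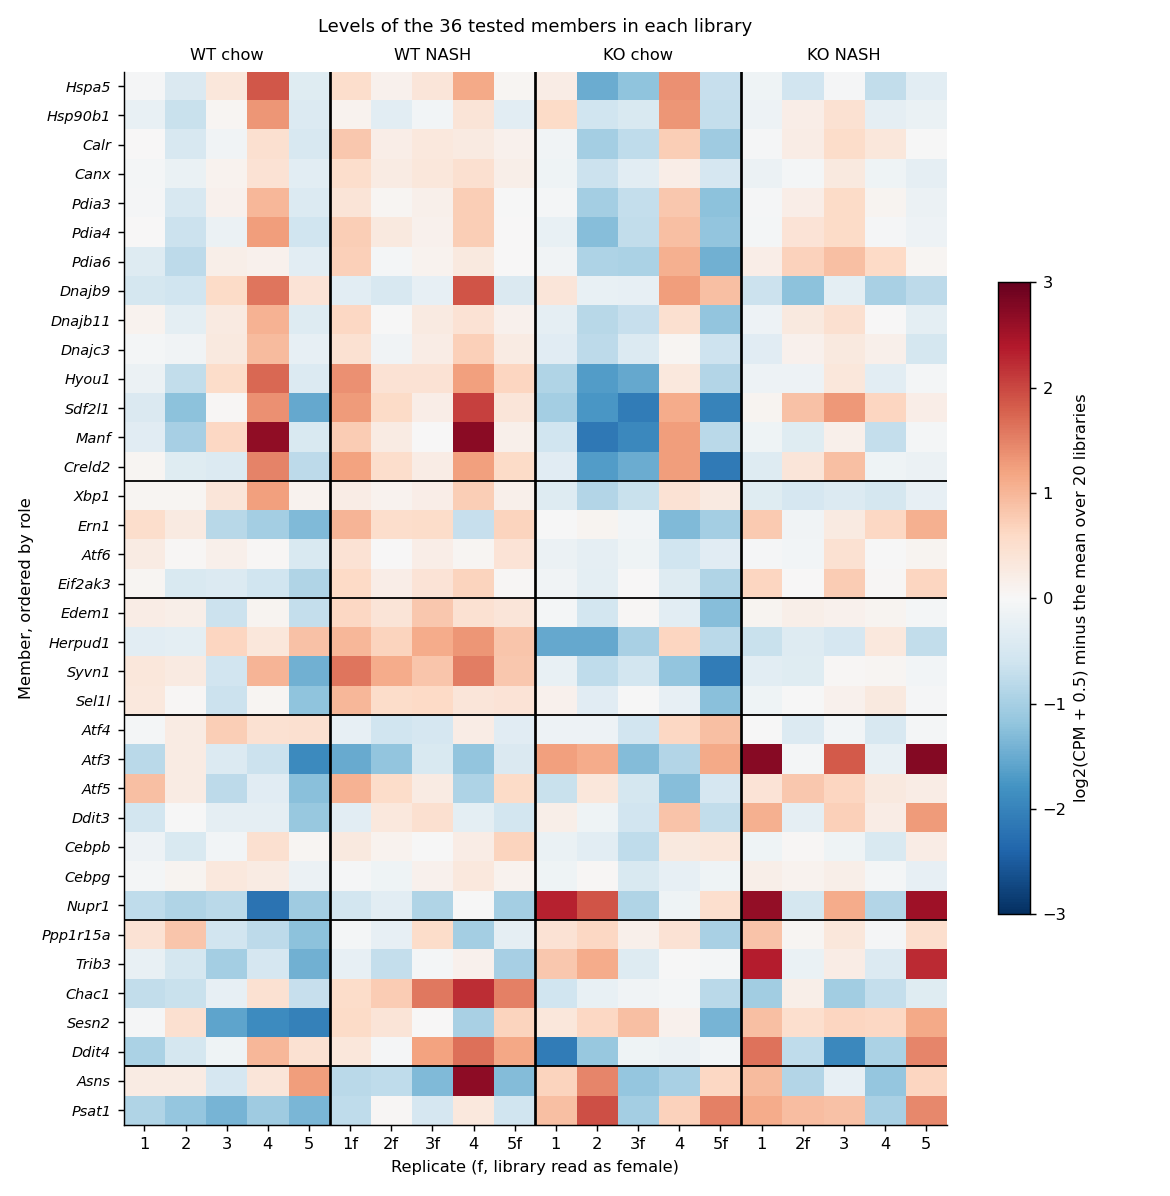
Level of the 36 tested genes (rows, by role, with black lines between roles) in the 20 libraries (columns, by group, f marking libraries read as female), as log2(CPM + 0.5) minus the gene's mean over all libraries; red is above and blue below that mean. Most chaperone rows are red in replicate 4 of WT chow and KO chow, and Atf3, Trib3 and Nupr1 are dark red in KO NASH replicates 1 and 5.

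Other genes of these pathways were taken from lists that hold none of the 38. Of 17 genes of the translocon and signal peptidase, through which new protein enters the ER, 4 were called for KO NASH against WT NASH, all lower (4.74% of all genes were lower): Sec61g fell by 2.26, Spcs1 by 1.76, Spcs2 by 1.38 and Ssr1 by 0.59 on the log2 scale. Their means were 7.16 ± 7.56, 165 ± 127, 114 ± 89.5 and 106 ± 27.8 CPM in WT NASH (SD, n = 5) and 1.45 ± 0.312, 48.5 ± 4.47, 43.6 ± 3.54 and 70.0 ± 5.92 CPM in KO NASH. WT NASH replicate 4 was the highest for all 4, at 20.4, 359, 274 and 152 CPM, and without it none of the 4 was called (-1.40, -1.27, -0.76 and -0.43, adjusted p = 0.0687, 0.142, 0.199 and 0.140). Among 19 further degradation genes, Derl2, a channel component, fell by 1.02 ± 0.22 in that comparison (15.4 ± 3.22 CPM in WT NASH, 7.55 ± 2.13 CPM in KO NASH, adjusted p = 0.00754). It was the 1 gene of the 19 called there (9.65% of all genes), and the median estimate of the 19 was -0.09. Of 22 other folding genes, 2 were called for WT NASH against WT chow (5.93% of all genes), both lower: Tor1b (-1.67) and Pdia5 (-0.70). Tor1b was also lower in KO NASH than in KO chow (-0.89) and higher in KO NASH than in WT NASH (0.98). It was the 1 folding gene called in each (3.29% and 9.65% of all genes). Of 19 genes of transport from the ER to the Golgi, Sec23a was lower on the NASH diet in both genotypes (-0.77 and -0.67). It was the 1 gene of them called in each (5.93% of all genes in WT and 3.29% in KO).

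Of 13 other stress transducers, 3 were called for WT NASH against WT chow (5.93% of all genes): Creb3l3 and Creb3 were lower (-1.12 and -1.19) and Creb3l2, a related ER-anchored factor, was higher (1.53). Creb3l3 encodes the liver factor CREBH and went from 508 ± 119 to 234 ± 32.7 CPM. Of 15 genes grouped around eIF2, its kinases and its exchange factor, 2 were called with diet in WT (5.93% of all genes) and 2 in KO (3.29%). Eif2b4 and Impact were lower in WT NASH than in WT chow (-0.96 and -0.95). Eif2b3 and Eif2b4 were lower in KO NASH than in KO chow (-1.03 and -0.90).

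Of 16 further ATF4 targets of amino acid synthesis and transport, 4 were called for KO chow against WT chow (5.53% of all genes). Mthfd1l, a mitochondrial folate enzyme, rose by 2.75 ± 0.49 (0.762 ± 0.361 to 5.31 ± 3.48 CPM, adjusted p = 0.00245), Slc6a9 by 1.21 and Slc3a2, the partner subunit of Slc7a11, by 0.90, while the amino acid transporter Slc38a2 fell by 0.89. On the NASH diet Mthfd1l rose by 2.12 and Slc38a2 fell by 1.00 in KO against WT (2 of 16, against 9.65% of all genes). With diet in WT, Cbs (0.96) and Slc1a4 (1.36) rose (2 of 16, against 2.69% of all genes called higher). With sex as a term neither was called (Cbs 0.60, adjusted p = 0.327, and Slc1a4 1.45, adjusted p = 0.137). In males only, with 1 WT NASH male, the estimates were 0.17 and 0.67. Of 13 tRNA synthetase genes and their exporter, 1 was called for WT NASH against WT chow (2.69% of all genes were called higher). This was Cars, which rose by 1.25 ± 0.17 (adjusted p = 0.000305). In KO chow over WT chow 2 rose (3.03% of all genes), Cars (0.60) and Mars (0.62). For WT NASH against WT chow, 2 of 20 other targets of ATF4 and CHOP were called (5.93% of all genes). For KO chow against WT chow 2 were called (5.53%). Between KO NASH and WT NASH there were 2 (9.65%), and between KO NASH and KO chow 3 (3.29%). Vldlr, a lipoprotein receptor, rose in WT NASH (3.48) and in KO chow (4.06) over WT chow. In WT NASH it stood at 8.39 to 20.3 CPM in the 4 libraries read as female and at 0 in the male one, against 0.542 to 1.49 CPM in the male WT chow libraries; with sex as a term the diet difference was 1.26 (adjusted p = 0.472), and in KO chow it was 2.79 (adjusted p = 0.00512). Gdf15, a secreted stress hormone, rose by 1.53 in WT NASH over WT chow. Stbd1 fell by 1.52 in KO chow against WT chow. Fgf21, a liver stress hormone, rose by 1.82 ± 0.55 in KO NASH over WT NASH (3.24 ± 1.93 to 11.8 ± 7.06 CPM, adjusted p = 0.0423), where Atf2 fell by 0.62. The Fgf21 call was lost in 12 of 32 alternatives, among them those without any 1 KO NASH library. Fgf21 stood at 24.3 CPM in KO NASH replicate 3, at 7.50 to 9.92 CPM in the others of that group and at 0 in WT NASH replicate 4. In KO NASH over KO chow, Trib1, Ndrg1 and Tnfrsf10b rose by 0.79, 0.94 and 1.77. The median estimates of these 3 lists were 0.44, 0.37 and -0.02 for KO chow against WT chow and 0.39, 0.39 and 0.13 for WT NASH against WT chow. Under the alternatives, the calls of Mthfd1l and Stbd1 on chow held in all 31, while those of Ssr1 (18 of 32), Pdia5 (20 of 31), Sec23a in KO (20 of 32), Cars and Mars in KO chow (20 and 21 of 31), Gdf15 (16 of 31) and Tnfrsf10b (19 of 32) were lost most often. With sex as a term, the WT diet calls of Pdia5, Sec23a, Creb3, Eif2b4, Impact, Cbs, Slc1a4, Vldlr and Gdf15 were lost. Between genotypes, that fit lost Slc3a2 and Slc6a9 on chow and Spcs1, Ssr1 and Mthfd1l on the NASH diet.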

How the data were processed

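RNA of 20 mouse livers was sequenced, 5 for each of 4 genotype and diet groups. Per the submitters' processing notes the reads were processed with HISAT2 2.0.4 and the build GRCm38; how reads were counted, on which annotation and with which strand setting is not given in the sources used here. Raw counts per gene symbol, as the authors deposited them, came to between 9958935 and 20601955 per library; intervals and floors cover counting error only. Columns named HFD were matched to the NASH groups. In R 4.3.3 with edgeR 4.0.16, 14440 genes passed filterByExpr at a minimum count of 10 and held 99.9% of counts. With TMM, 1 model of 4 groups was fitted to all libraries with quasi-likelihood F tests, adjusted by Benjamini-Hochberg; SEs came from the F statistic. Alternatives used limma 3.58.1 (voom with sample quality weights, called limma voom here) and DESeq2 1.42.0 among others, and the test was checked on simulated counts. A library was read as male from 100 Y-linked counts upward. The length slope is that of log2 CPM on log2 exonic length over 9518 genes, from GENCODE M21, which also gave coordinates. Genes called in any comparison, and for a role without one the gene of smallest p, are given in full; of pathway lists, up to 4 called genes per comparison. The genes, lists and rules were chosen with earlier results of these data known.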

Additional observations from a re-analysis of the deposited data

Results flagged for a closer look

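Each group of 5 libraries was checked for a library far from the others in 9 genes, 36 groups in all, and 3 had a highest library whose gap to the next, divided by the range of the group, passed the 95% critical value of Dixon's test, 0.71; chance gives about 1 in 20. Hyou1 was at 178.7 CPM in KO chow replicate 4, with a gap of 0.751 of the range. Herpud1 was at 482.6 CPM in KO chow replicate 4, with a gap of 0.813, and at 387.6 CPM in KO NASH replicate 4, with a gap of 0.754. All 14 chaperones were highest in KO chow replicate 4, but in KO NASH replicate 4 none was.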

How the results depend on the processing

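Alternatives were counted for the named genes in the comparisons that called them, and for Hyou1 between genotypes on each diet. Of these estimates, 303 kept their direction and their side of the threshold, 69 missed it, 6 passed it and 0 changed sign. Most were chosen for a call in the main fit, so the counts do not cover the other comparisons of these genes. Of the other pathway genes, Vldlr changed sign in males only (WT NASH against WT chow, -6.97), where the WT NASH male had 0 counts. Counts of called genes of the 36 moved more. For WT NASH against WT chow (2), DESeq2 gave 5, limma voom 10, the replicate number as a block 4, and males only, only the groups compared and sex as a term 1 each; leaving out 1 library gave 1 to 5. For KO chow against WT chow (2), limma voom gave 10, the replicate block 4, sex with length slope 4 and only the groups compared 0; leaving out 1 library gave 1 to 5. For KO NASH against WT NASH (6), only the groups compared gave 10, sex as a term 3, males only 2, KO NASH replicates 1 and 5 summed 2 and females only 0; leaving out 1 library gave 2 to 7, and the replicate block 4. For KO NASH against KO chow (0), limma voom gave 7, the replicate block 2, sex with length slope 2, DESeq2 1 and the length slope 1; leaving out 1 library gave 0 to 2. For the interaction (0), limma voom gave 4, DESeq2 1 and the length slope 1; leaving out 1 library gave 0 to 1, and the replicate block 0. Calls over all genes moved as well: limma voom called 5866 genes for WT NASH against WT chow, against 857. The cause was not tested. Deviations of same-numbered libraries correlated by 0.09 on average (-0.49 to 0.66), and those of differently numbered ones by -0.02 (-0.79 to 0.70). Of 20 libraries, 5 correlated best with their own number. The main fit did not treat the numbers as pairs, and these values cannot tell whether mice shared a litter or a cage. Males only rests on 1 WT NASH mouse and females only on 1 KO NASH mouse; their spread was taken from the other groups. A fit of only the groups compared has no value for the interaction, nor have females only for comparisons with WT chow, which held no female. Low counts limit Chac1, Psat1, Nupr1, Atf3, Asns, Phgdh and Slc7a11.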

Other observations

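Cytosolic heat shock genes and clock genes, lists outside the ER, were read in the same way. Of 16 tested heat shock genes, Hsph1, a cytosolic co-chaperone, was called, and no other (5.53% of all genes between genotypes on chow and 9.65% on the NASH diet). It was lower in KO than in WT on both diets, by -0.82 ± 0.24 on chow (124 ± 26.4 CPM in WT, 70.1 ± 26.2 CPM in KO) and by -0.82 ± 0.24 on the NASH diet (170 ± 29.4 and 96.2 ± 21.6 CPM). These calls were lost in 18 of 31 and 9 of 32 alternatives, sex as a term among them. The median of the list was -0.10 and -0.29 in these comparisons.

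Of 15 clock genes, 3 were higher in WT NASH than in WT chow (2.69% of all genes were called higher): Arntl by 2.73, Npas2 by 4.11 and Nfil3 by 1.05 on the log2 scale. Arntl stood at 2.91 ± 1.34, 19.7 ± 7.21, 3.39 ± 0.908 and 7.32 ± 2.64 CPM in WT chow, WT NASH, KO chow and KO NASH, so that WT NASH was high, as it was for Chac1. In KO NASH against WT NASH, 3 of 15 were called (9.65% of all genes): Arntl was lower (-1.42), and Ciart (1.79) and Dbp (1.92) were higher. Dbp ranged from 0.710 to 31.8 CPM in WT NASH and from 45.4 to 84.2 CPM in KO NASH, without overlap. The calls of Arntl were lost in 0 of 31 and 1 of 32 alternatives, that of Nfil3 in 14 of 31 and that of Dbp in 11 of 32. Those of Nfil3, Ciart and Dbp were lost with sex as a term. The hour at which the livers were taken was not given in the sources used here, and the part of these clock genes in the differences of Chac1, Herpud1 and Syvn1 was not tested.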
